A study of Rattus norvegicus with 6 samples.

Results

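AP-1 and the other immediate early factors were followed through 10 genes, namely Fos, Fosb, Fosl1 and Fosl2 of the FOS family, Jun, Junb and Jund of the JUN family, and Egr1, Ier2 and Myc. They were found by gene symbol, 1 row each, among the 17048 rows of each count table. They were chosen by their family and selected on their measured levels, since their CPM on the High, Medium and Low films was already known, so the film differences of the 10 genes are given as a description and the p-values do not stand as tests of them. FOS and JUN proteins pair through a leucine zipper to form AP-1, a transcription factor that binds the TGACTCA element. JUN proteins can also pair with each other, whereas FOS proteins need a partner. Immediate early genes are switched on within minutes of growth factor, calcium or stress signals, without new protein synthesis, through serum response factor, CREB and the MAP kinases. In neural cells Fos and Egr1 are widely used as markers of recent activity.

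The cells were wild-type rat neural stem/progenitor cells, taken from the telencephalon of mid-gestation Sprague-Dawley embryos, grown as neurospheres and used at early passage. In all groups they were kept for 24 h in a medium that maintains stemness and contains EGF and bFGF, growth factors that act through the MAP kinases. The groups differed in the carbon film under the cells, a mix of carbon nanotubes and graphene oxide nanoribbons named High, Medium or Low by its electrical conductivity, with 2 libraries each. There was no culture on plain plastic, so High served as the reference, and the question was whether the early factors differ between it and the less conductive films. The labels do not say whether the 2 libraries of a film came from separate cultures or animals, so all p-values measure the spread between libraries, which may be technical.

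Each library held 5124863 to 6213676 counts of 3′ reads. Values are given as TMM-normalized counts per 1000000 (CPM), in which 1 count was worth 0.145 to 0.239 CPM. Ribosomal RNA took 26.1% and 38.4% of the High counts and 7.16% to 13.0% of the others, which TMM, a scaling that trims extreme rows, offset with factors of 0.890 and 0.777 for High and 1.04 to 1.14 for the rest. Values without the ribosomal RNA rows are given where they bear on a result. Libraries of 1 film were far apart, with 1408 to 2084 rows at 0 in one replicate and at 50 counts or more in the other. Of the neural stem/progenitor markers, Sox2, Sox9, Nes and Vim were present in every library, whereas Hes5 and Msi1 were at 0 in all 6. In whole-culture RNA, fewer cells of a type and less RNA per cell cannot be told apart.

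Promoters are shown for 4 members that have a RefSeq promoter entry and whose Low and Medium libraries all lay under both High libraries, since they carry the film difference described next. Each run covers 250 bases before to 50 bases after the RefSeq start in the assembly GRCr8, which is not the rn6 build named for the counts, and is written 5′ to 3′ on the gene's strand. Capitals mark the cAMP response element TGACGTCA (CRE), bound by CREB and ATF proteins, and its short form TGACG, on either strand.
Fosl1, chr1:212183635-212183934, plus strand: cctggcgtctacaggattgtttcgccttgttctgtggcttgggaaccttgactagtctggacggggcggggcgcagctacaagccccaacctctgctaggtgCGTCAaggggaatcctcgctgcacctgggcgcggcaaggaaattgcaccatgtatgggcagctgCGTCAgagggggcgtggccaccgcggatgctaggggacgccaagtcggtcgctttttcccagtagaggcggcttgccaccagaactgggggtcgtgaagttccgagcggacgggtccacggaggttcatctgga
Fosb, chr1:88089135-88089434, minus strand: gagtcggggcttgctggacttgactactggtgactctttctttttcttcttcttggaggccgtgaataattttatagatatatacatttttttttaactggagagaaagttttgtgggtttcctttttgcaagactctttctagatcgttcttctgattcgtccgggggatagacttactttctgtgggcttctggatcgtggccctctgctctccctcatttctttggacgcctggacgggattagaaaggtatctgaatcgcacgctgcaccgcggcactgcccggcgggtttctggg
Junb, chr19:40080876-40081175, plus strand: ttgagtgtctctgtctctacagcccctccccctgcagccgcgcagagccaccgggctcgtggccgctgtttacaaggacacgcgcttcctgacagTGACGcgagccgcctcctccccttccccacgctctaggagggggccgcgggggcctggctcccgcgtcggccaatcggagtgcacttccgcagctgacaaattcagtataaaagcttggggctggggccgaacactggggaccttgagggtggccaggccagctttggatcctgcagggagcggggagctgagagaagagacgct
Ier2, chr19:40399123-40399422, plus strand: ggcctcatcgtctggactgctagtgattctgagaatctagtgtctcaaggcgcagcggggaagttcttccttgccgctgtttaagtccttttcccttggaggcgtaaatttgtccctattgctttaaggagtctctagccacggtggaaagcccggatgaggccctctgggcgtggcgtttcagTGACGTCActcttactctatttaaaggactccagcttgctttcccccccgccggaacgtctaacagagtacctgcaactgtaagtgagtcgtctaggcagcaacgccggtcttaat
The windows of Ier2 and Fosl1 held different forms of the element. Ier2 had the full CRE with its first base at position -66 from the start. Fosl1 had the short form at -148 and -84, both read on the opposite strand, and Junb had it once, at -155. Fosb held none of the letters searched.

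In all, 7 of the 10 members matched a RefSeq promoter entry, and Fos, Jun and Myc did not. Both strands were searched for the CRE (TGACGTCA), its short form (TGACG), the AP-1 element TGACTCA, the E-box CACGTG that MYC binds, and the CArG box of serum response factor. Every full CRE also counts as the short form. The full CRE stood in 2 of the 7 member windows, those of Ier2 and Jund, and in 1.83% of all 33469 rat promoter windows of the same length. The short form stood in 5 of 7, against 21.2% of all windows. The CArG box stood only in the Egr1 window among the 7, with copies at -105 and -83, against 1.64% of all windows. The AP-1 element and the E-box were in 0 of the 7 windows, and in 4.63% and 6.42% of all windows. These matches describe letters in a window and not bound sites.

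The counted FOS family genes all stood highest on High. Fosl1, which encodes FRA-1, a FOS protein without the strong activation domain of c-FOS, had 334 and 482 CPM on High, 3.43 and 64.6 CPM on Medium, and 20.3 and 100.2 CPM on Low. The 4 Low and Medium libraries were all under both High libraries, with a wide gap between the groups. The means were 408 ± 105 CPM on High, 34.0 ± 43.3 on Medium and 60.2 ± 56.5 on Low (SD, n = 2 each), so High stood 12.0-fold above Medium and 6.78-fold above Low. In the fit, the log2 fold change of Low and Medium against High was -3.17 (SE 0.92). Medium and Low overlapped, with a log2 difference of 0.82 (SE 1.10) between them.

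Fos encodes c-FOS, the founding partner of JUN. It stood at 238 and 162 CPM on High, 0 and 52.8 CPM on Medium, and 0 and 18.5 CPM on Low. Again no Low or Medium library reached a High library, and replicate 1 of both Medium and Low had 0 counts, which allows up to 3. The means were 199.6 ± 53.9 CPM on High, 26.4 ± 37.3 on Medium and 9.23 ± 13.1 on Low (SD, n = 2 each). High was 7.56-fold above Medium and 21.6-fold above Low, and Medium and Low overlapped. The size depended on the replicates with counts. The fitted log2 fold change of Low and Medium against High was -3.68 (SE 1.90), and -8.78 without Medium replicate 2 or -8.02 without Low replicate 2. Without its replicate 2, Medium or Low alone against High went from -2.92 or -4.43 to -13.12, where the remaining library has 0 counts and the fitted value is set by the fit's prior count.

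Fosb encodes the FOSB protein, whose stable short form builds up in neurons under repeated activity. It had 130 and 115 counts on High, that is 26.8 and 27.4 CPM, and 0 counts in all 4 Medium and Low libraries. With each library without a count raised to 3 counts, High was at least 53.8-fold higher than Medium and at least 57.8-fold higher than Low. The filter on low counts asks for enough counts in as many libraries as a film has, whichever films they are from. Fosb met it only through High, so its place among the members that passed the filter says nothing more. Fosl2, which encodes FRA-2, had 0 counts in all 6 libraries and was left out of the fit.

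**Figure D1:**
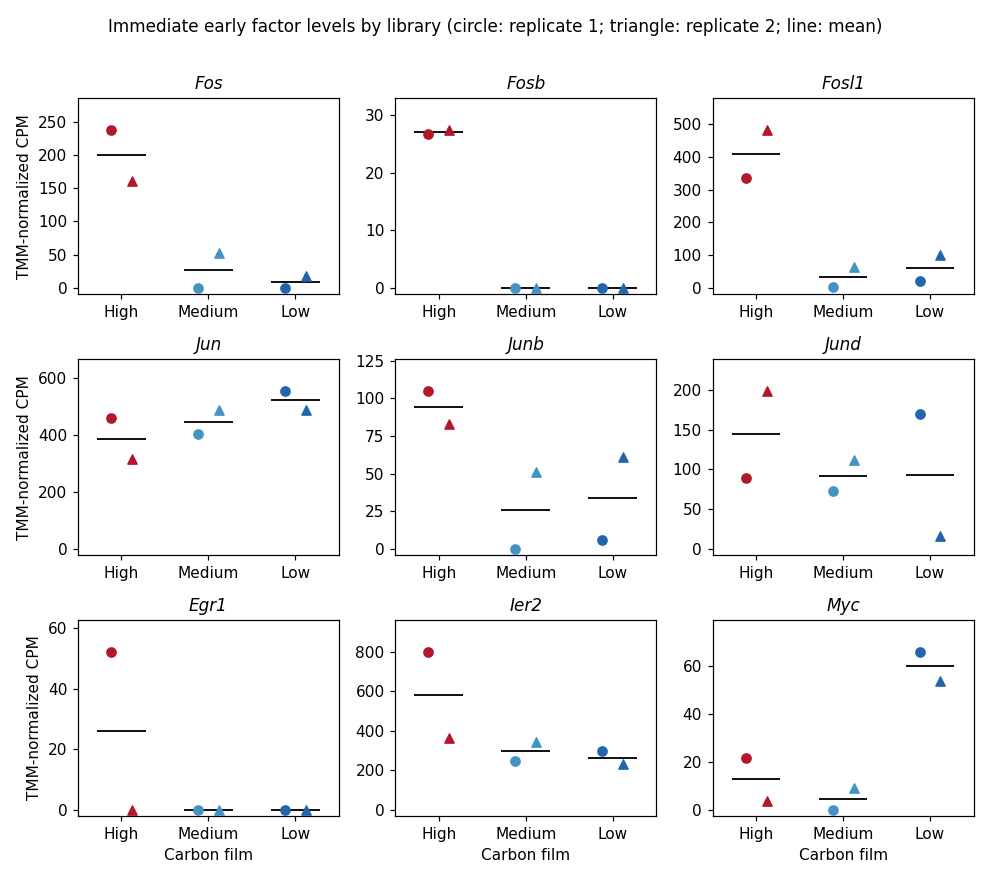
TMM-normalized CPM (y axis, linear, with its own range in each panel) of the 9 members with counts, by carbon film (x axis), with circles for replicate 1, triangles for replicate 2 and lines for the mean of 2 libraries. Fos, Fosb, Fosl1, Junb and Ier2 have both High libraries above all 4 others, Jund overlaps between films, Egr1 has counts in 1 High library, and Jun and Myc are highest in the 2 Low libraries, Jun by a narrow margin over Medium replicate 2.

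The summed JUN family level overlapped between the films, while its members took different courses. Jun encodes c-JUN, the partner that FOS proteins need. It stood at 458 and 313 CPM on High, 402 and 488 CPM on Medium, and 555 and 489 CPM on Low. The order of the means was Low at 522 ± 46.7 CPM, Medium at 445 ± 61.2 and High at 386 ± 102 (SD, n = 2 each), with Low replicate 2, at 489 CPM, next to Medium replicate 2, at 488 CPM, and with Medium and High overlapping. Both Low libraries were above both High libraries. The log2 fold change of Low and Medium against High was 0.32 (SE 0.29), and it was 0.62 without High replicate 1 and 0.071 without High replicate 2.

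Junb, a JUN protein that is a weaker activator than c-JUN and can oppose it, followed Fosl1 rather than Jun. It had 105 and 83.0 CPM on High, 0 and 51.2 CPM on Medium, and 6.08 and 61.1 CPM on Low. All 4 Low and Medium libraries were lower than both High libraries, but when scaled by library size, without TMM, the lowest High level, 64.5 CPM, was under the highest of the others, 66.9 CPM. The fitted log2 fold change was -1.68 with an SE of 1.82, wider than the difference, and ran from -6.76 without Medium replicate 2 to -1.18 without Medium replicate 1.

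Jund, which encodes the JUN protein present in most resting cells, showed no order that replicates kept. It stood at 89.0 and 199 CPM on High, 73.1 and 111 CPM on Medium, and 170 and 16.4 CPM on Low. The films overlapped throughout, and the 2 Low libraries were further apart than any pair of film means. Without High replicate 2 the log2 fold change of Low and Medium against High changed sign, from -0.64 (SE 0.88) to 0.06.

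The balance of the families can be read within a library, where no scaling between libraries enters. FOS family counts were 2905 of 6072 FOS and JUN family counts in High replicate 1, or 47.8% (95% Wilson interval 46.6 to 49.1), and 2814 of 5311 in High replicate 2, or 53.0% (51.6 to 54.3). On Medium the share was 0.718% (0.465 to 1.11) in replicate 1 and 15.3% (14.3 to 16.3) in replicate 2. On Low it was 2.70% (2.29 to 3.18) and 17.3% (16.2 to 18.5). All 4 Low and Medium shares were thus far under both High shares, and within each of these films replicate 1 was lower than replicate 2, with intervals that did not overlap. The intervals treat each read as a separate draw. Since the reads carry no molecular identifiers, the intervals may be too narrow even for counting error, and they do not cover the spread between cultures. The 3′ counts are compared here between libraries and not read as the proportion of transcripts.

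Summed over its members, the FOS family stood at 635 ± 51.5 CPM on High, 60.4 ± 80.6 on Medium and 69.5 ± 69.6 on Low (SD, n = 2 each), a mean 10.5-fold and 9.14-fold under High. The JUN family sum was 624 ± 40.1 CPM on High, 563 ± 124 on Medium and 648 ± 116 on Low, which is 0.902 and 1.04 times High. The log2 ratio of the Low and Medium mean to the High mean was -3.29 for FOS and -0.04 for JUN. With library sizes alone these were -2.92 and 0.34, so the sign for JUN rests on the scaling while that for FOS was the same under both. Without ribosomal RNA rows the log2 ratio of FOS was -3.29. Fosl1 gave 55.8% and 71.9% of the FOS family counts on High, 100% and 55.0% on Medium, and 100% and 84.4% on Low, so it was the main FOS family count in every library.

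**Figure D2:**
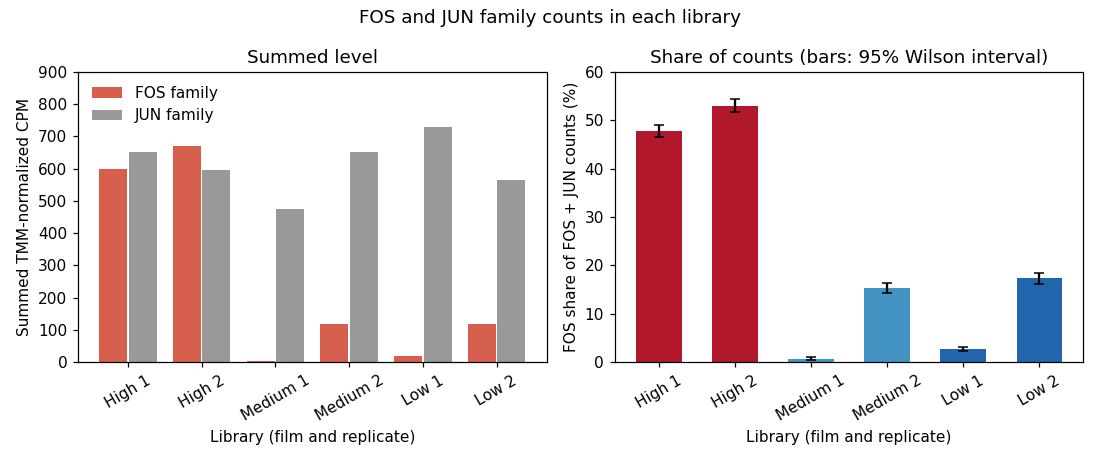
Left, summed TMM-normalized CPM of the FOS family and the JUN family in each library (y axis) by film and replicate (x axis). Right, FOS family counts as a percentage of FOS and JUN family counts, with 95% Wilson intervals that treat each read as a separate draw. FOS and JUN sums are alike in the High libraries, and the FOS share is 47.8% and 53.0% there against at most 17.3% on the other films.

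Egr1 encodes a zinc finger factor that serum response factor induces through the CArG boxes of its promoter. It had 254 counts, or 52.3 CPM, in High replicate 1 and 0 counts in the 5 other libraries, High replicate 2 among them. Its level therefore rests on 1 library, and it did not pass the filter on low counts. With each library without a count raised to 3 counts, the High mean was at least 52.0-fold higher than Medium and at least 55.8-fold higher than Low in these libraries. That limit allows for counting error alone and not for the spread between libraries. Without High replicate 1 there was no fold to give.

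Ier2, an early gene whose product is a small nuclear protein linked to transcription, was present in every library. It stood at 802 and 363 CPM on High, 246 and 345 CPM on Medium, and 296 and 229 CPM on Low. All 4 Low and Medium libraries were lower than both High libraries, though Medium replicate 2 came close to High replicate 2. The means of 582 ± 311, 295 ± 70.2 and 262 ± 47.3 CPM (SD, n = 2 each) put High 1.97-fold above Medium and 2.22-fold above Low. Much of this rested on High replicate 1, since without it the log2 fold change of Low and Medium against High went from -1.06 to -0.38, that of Low from -1.15 to -0.47 and that of Medium from -0.98 to -0.29. With library sizes alone the films overlapped, at 281.9 CPM in the lowest High library and 357.6 CPM in the highest of the others. Set against Jun in the same library, Ier2 counts were 175% and 116% of the Jun counts on High and 46.9% to 70.7% in the 4 others, a comparison free of scaling.

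Myc, which encodes the growth factor-induced regulator of ribosome production and metabolism, also had its highest levels on Low. It had 21.6 and 3.58 CPM on High, 0 and 9.19 CPM on Medium, and 65.9 and 53.7 CPM on Low. Both Low libraries were above the 4 others, and High and Medium overlapped. The Low mean of 59.8 ± 8.63 CPM (SD, n = 2) was 13.0-fold above that of Medium, yet the fitted log2 difference of 3.70 had an SE of 3.14.

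Across all rows, edgeR's quasi-likelihood test, at a Benjamini-Hochberg adjusted p under 0.05, called 10 of 7729 rows in Low and Medium against High (0.129%), 4 in Low against High (0.0518%), 1 in Medium against High (0.0129%) and 0 in Low against Medium (0%). Of the 8 members in the fit, 0 were called in any of the 4 comparisons. The smallest adjusted p among them by edgeR's quasi-likelihood test was 0.557, for Fosl1 in Low and Medium against High. With any 1 library other than High replicate 2 left out, Fosl1 passed that threshold, at log2 fold changes from -4.84 to -2.71, as did Fos without Medium replicate 2 or without Low replicate 2. At an unadjusted p under 0.05, 3 members were lower in that comparison (Fosl1, Fosb and Ier2), beside 2.81% of all rows, and none was higher. Fosb was in the fit only through High and so had to be lower, which leaves Fosl1 and Ier2. DESeq2 called 2 of them, Fosb and Ier2, as lower (2.15% of all rows), which in the same way leaves Ier2. With limma-voom none was called, and 5 members, Fosb among them, were lower at an unadjusted p under 0.05, beside 7.09% of all rows. In Low against Medium the members had 0 calls by all 3 tools, and 0, 0 and 1 at an unadjusted p under 0.05 by edgeR, DESeq2 and limma-voom, beside 1.51%, 10.4% and 4.92% of all rows.

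Of the 8 members in the fit, 5 had all 4 Low and Medium libraries under both High libraries, 0 had all 4 above, and 3 overlapped. This pattern was found in 10.1% of all 7729 rows, and since the members were chosen with these levels known, nothing is read from the difference. Fosb, in the fit only through High, had to show this pattern. The same 5 had it without the ribosomal RNA rows, and 3 of them, Fos, Fosb and Fosl1, with library sizes alone. Low against High and Medium against High share the High libraries. Side by side, the log2 fold changes were -2.76 (SE 1.17) and -3.58 (SE 1.21) for Fosl1. They were -4.43 (SE 2.57) and -2.92 (SE 2.39) for Fos. Ier2 had -1.15 (SE 0.44) and -0.98 (SE 0.44), so these 3 genes were lower on both films by more than 1 SE. Myc alone had opposite signs, 2.24 (SE 2.95) and -1.45 (SE 2.88).

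**Figure D3:**
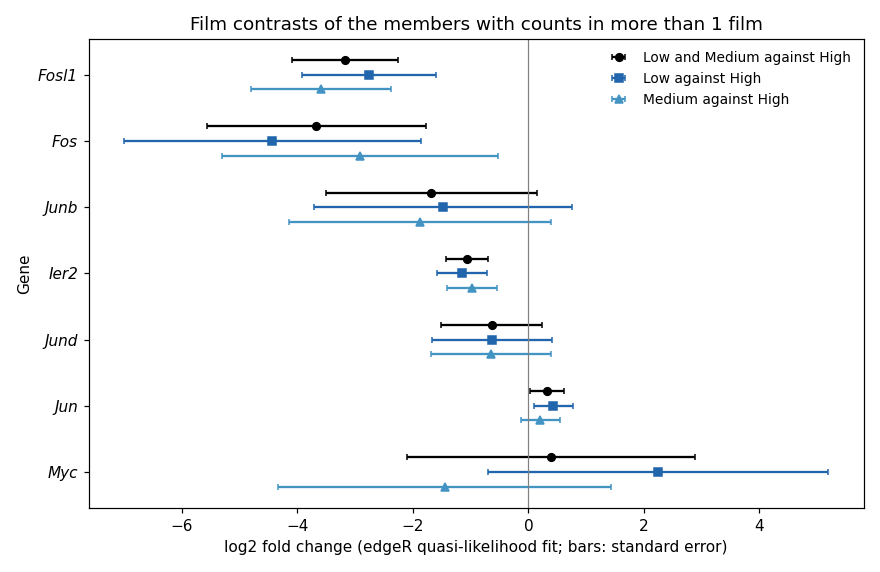
Log2 fold changes from the edgeR fit (x axis) with standard errors (bars) for the 7 members with counts on more than 1 film (y axis), in 3 comparisons that share the High libraries. Fosl1, Fos and Ier2 lie left of 0 by more than 1 standard error in each comparison, Junb and Jund have errors that reach past 0, and Myc has opposite signs on Low and Medium.

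Over the 6 libraries, the level of Fosl1 on the log2(CPM + 1) scale moved with that of Junb (Pearson r = 0.95) and Fos (r = 0.93), and that of Fos with Junb (r = 0.91). These points share their libraries and fall into High and the rest, so the values only describe that the 3 genes were low in the same libraries, replicate 1 of Medium and of Low in particular. Jun went with Myc (r = 0.70) rather than with Fosl1 (r = -0.33). Among 4302 well-counted rows, those most like Fosl1 over the 6 libraries were Setd4 (r = 0.990), Zfp142 (r = 0.989), Rheb (r = 0.987), Stat3 (r = 0.985) and Ybx3 (r = 0.985). For Jun they were Yipf5 (r = 0.995), Dpysl2 (r = 0.991), Tmem47 (r = 0.990), Daxx (r = 0.983) and Tspan31 (r = 0.980).

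Most other immediate early genes in the fit were lower by sign on Low and Medium. Of 36 listed, 35 were in the tables, 22 were in the fit, and 0 passed the adjusted threshold of edgeR's quasi-likelihood test. By sign 19 were lower and 3 higher in Low and Medium against High, beside 54.1% and 45.9% of all rows. All 4 libraries were under both High libraries in 6 genes, beside 10.1% of all rows. Atf3, Maff and Csrnp1 are among the 19 and the 6. They passed the filter on low counts only through High, so their place there says nothing more. At an unadjusted p under 0.05, 5 were lower and 0 higher, beside 2.81% and 2.69% of all rows. These 5 include the same 3 genes, Atf3, Maff and Csrnp1, which had to differ, and this leaves Ier3 and Phlda1. Csrnp1 and Phlda1 are named after their values were seen. Their median log2 fold change was -0.79, beside -0.12 over all rows in the fit. Atf3, a stress-induced partner of JUN, had 204 and 69.4 CPM on High and 0 in the 4 other libraries. Maff, a small MAF factor that lacks an activation domain, had 42.0 and 75.4 CPM on High, 7.87 CPM in Medium replicate 2 and 0 in the other three. Atf3 was thus counted on High alone, like Fosb. Ier3, an early gene that affects survival, had 598 and 639 CPM on High, 61.1 and 348 CPM on Medium, and 192 and 281 CPM on Low, with a log2 fold change of -1.49 (SE 0.53). Arc, the neuronal activity marker, had 36.7 and 45.3 CPM on High and 4.12 to 18.6 CPM in the 4 others.

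The bZIP relatives, which can pair with FOS or JUN proteins or bind like elements, were also mostly lower by sign. Of 26 listed, 23 were in the tables and 11 in the fit. By sign 10 were lower and 1 higher, beside 54.1% and 45.9% of all rows. At an unadjusted p under 0.05, 1 was lower, Nfe2l2, beside 2.81% of all rows, and 0 passed the adjusted threshold. The median log2 fold change was -1.19. Nfe2l2 encodes NRF2, the factor that switches on antioxidant genes. It had 305 and 211 CPM on High, 8.41 and 101 CPM on Medium, and 70.8 and 30.4 CPM on Low, with a log2 fold change of -2.29 (SE 0.86). Ddit3, which encodes the stress factor CHOP, had 238 and 301 CPM on High, 3.60 and 92.7 CPM on Medium, and 113 and 166 CPM on Low. Both genes had all 4 Low and Medium libraries under both High libraries, as did Mafg, with a log2 fold change of -1.19 (SE 0.58).

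The kinases and factors that induce early genes were split by sign. Of 26 listed, 22 were in the tables and 17 in the fit, with 8 lower and 9 higher by sign, a median log2 fold change of 0.01, and 2 lower and 1 higher at an unadjusted p under 0.05. None passed the adjusted threshold. Crebbp, the CREB coactivator, had 212 and 344 CPM on High, 163 and 193 CPM on Medium, and 95.9 and 127 CPM on Low (log2 fold change -0.98, SE 0.44). Mapk3, which encodes ERK1, had 96.2 and 71.8 CPM on High and 0 to 67.4 CPM in the 4 others. Both had every Low and Medium library under both High libraries.

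Listed AP-1 target genes were split. Of 30 listed, 11 had 0 counts in all libraries and 17 were in the fit, Fosl1 among them, with 10 lower and 7 higher by sign and a median log2 fold change of -0.21. At an unadjusted p under 0.05, 2 were lower and 0 higher, and 0 passed the adjusted threshold. Hbegf, an EGF receptor ligand, had 215 and 156.5 CPM on High, 15.6 and 77.6 CPM on Medium, and 19.7 and 98.2 CPM on Low. Lgals3, which encodes galectin-3, had 158 and 92.8 CPM on High, 13.2 and 37.6 CPM on Medium, and 39.4 and 39.8 CPM on Low. Vegfa, an angiogenic growth factor gene, had a log2 fold change of -1.24 (SE 0.86). Each of these had all Low and Medium libraries under both High libraries.

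The list of EGR1 corepressors and targets had 14 genes, Egr1 included, of which 9 were in the fit, 5 lower and 4 higher by sign, with a median log2 fold change of -0.21. At an unadjusted p under 0.05 there were 0, and 0 passed the adjusted threshold of edgeR's quasi-likelihood test. Pdgfa, a growth factor gene, had 34.8 and 28.4 CPM on High, 139 and 49.9 CPM on Medium, and 70.6 and 84.6 CPM on Low. All 4 Low and Medium libraries lay above High, with a log2 fold change of 1.44 (SE 1.06).

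Most listed MYC targets were higher by sign. Of 25 listed MYC target genes, which serve ribosome production, metabolism and chaperone function, all were in the fit, as 26 rows because 1 symbol has 2. Of these rows, 20 were higher and 6 lower by sign, beside 45.9% of all rows higher, and 6 were higher and 0 lower at an unadjusted p under 0.05, beside 2.69% of all rows higher. All 4 Low and Medium libraries were above both High libraries in 8 rows, beside 8.06% of all rows, and below both in 2. The median log2 fold change was 0.47, and 0 passed the adjusted threshold. Fbl, which encodes the nucleolar methyltransferase fibrillarin, had 284 and 392 CPM on High, 602 and 844 CPM on Medium, and 911 and 621 CPM on Low. Its log2 fold change was 1.14 (SE 0.30), with an adjusted p of 0.484 by edgeR's quasi-likelihood test. Rrs1, another ribosome assembly gene, had 44.3 and 44.4 CPM on High, 144 and 132 CPM on Medium, and 75.6 and 173 CPM on Low. Ldha and Tfrc, the genes of lactate dehydrogenase A and the transferrin receptor, had log2 fold changes of 0.95 (SE 0.42) and 0.82 (SE 0.35). In those 8 rows Medium and Low were both above High, while Myc itself had its highest levels on Low.

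Of 19 listed MYC partners and antagonists, 13 were in the tables and 10 in the fit, with a median log2 fold change of 0.75. By sign 6 were higher and 4 lower, beside 45.9% and 54.1% of all rows. Mycn, among the 6, had counts on Low alone, so it had to be higher, and it is named after its values were seen. At an unadjusted p under 0.05, 1 gene was higher, beside 2.69% of all rows. That gene was Ruvbl2, a helicase of chromatin complexes, at 35.2 and 59.2 CPM on High, 221 and 153 CPM on Medium, and 170 and 118 CPM on Low (log2 fold change 1.80, SE 0.65). When counts were scaled by library size, without TMM, the median of all rows moved up by 0.38, so each median is to be read against that of all rows and not against 0. Max, the partner MYC needs to bind DNA, was at 0 in all 6 libraries, as was Mycl. Both were chosen for mention after their values were seen.

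**Figure D4:**
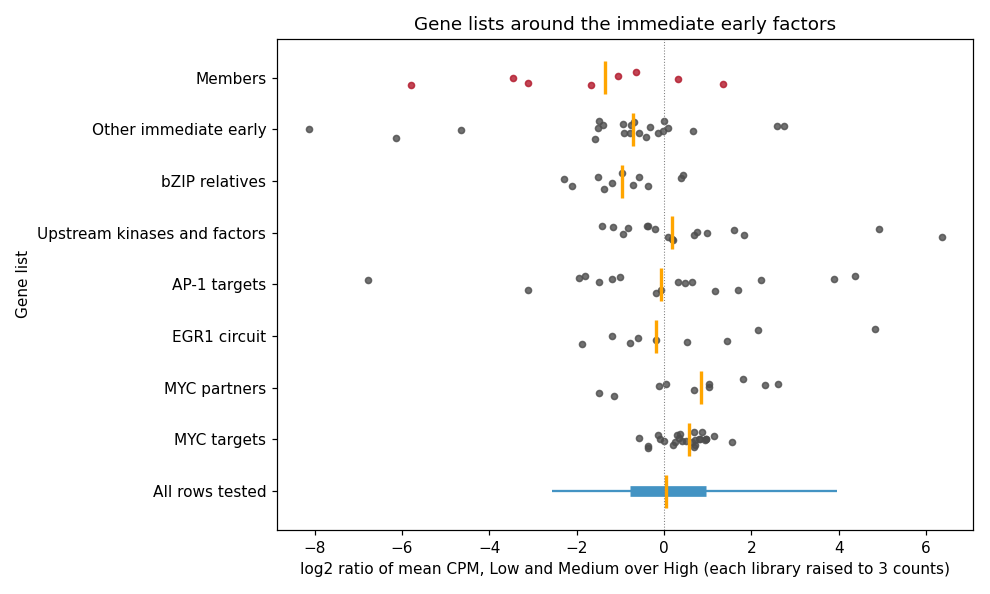
Log2 ratio of the mean CPM of the 4 Low and Medium libraries to that of the 2 High libraries (x axis), after each library was raised to 3 counts, for every gene in the fit of the members and of 7 lists of related genes (points), with the list median (orange) and, for all 7729 rows, the middle 50% (thick bar), the 5th to 95th percentile (thin line) and the median of 0.05. The medians plotted run from -1.36 for the members and -0.96 for the bZIP relatives to 0.57 for MYC targets and 0.85 for MYC partners.

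Several markers of the cells themselves stood higher on Low and Medium, beside the early factors. Of 9 detected neural stem/progenitor markers, Nes, Sox2, Sox9 and Vim had all 4 Low and Medium libraries above both High libraries, and 0 had all 4 below. Over all rows these shares were 8.06% and 10.1%. Sox2, a factor that maintains neural stem cells, had 268 and 266 CPM on High, 598 and 554 CPM on Medium, and 705 and 683 CPM on Low, with a log2 fold change of 1.24 (SE 0.27). The summed level of the list was 3525 and 3197 CPM on High and 4645 to 6187 CPM on the other films. The part of this in the levels of the early factors was not tested.

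For other cell types, 6 of 8 microglia markers were at 0 in all libraries, and their sum was 0 CPM on High and at most 7.10 CPM elsewhere. Of 11 meningeal, vascular and fibroblast markers, Dcn, Lum, Pdgfrb, Pecam1 and Cldn5 were at 0 in all libraries. Their summed level was 103 and 137 CPM on High and 14.9 to 401 CPM on the others, with Acta2, a smooth muscle actin and serum response factor target, at 57.1 and 101 CPM on High and 0 to 20.1 CPM elsewhere. Neuron markers summed to 31.0 and 69.4 CPM on High and 27.1 to 202 CPM on the others, with Rbfox3 and Syt1 at 0 throughout. Astrocyte markers summed to 232 and 246 CPM on High and 251 to 505 CPM elsewhere, with Aqp4, Aldh1l1 and Slc1a2 at 0. Oligodendrocyte lineage markers summed to 326 and 413 CPM on High and 510 to 748 CPM elsewhere, with Sox10 at 0. Neuron and mesenchymal sums overlapped between the films, while the astrocyte and oligodendrocyte lineage sums were higher in all 4 Low and Medium libraries. Their part in the early factor levels was not tested.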

How the data were processed

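QuantSeq 3′ libraries were sequenced single-end by the authors and aligned with Bowtie2, and alignments per gene, unique and multiple, were counted with Bedtools. The submitters' processing notes name the rn6 build, and the annotation is not given in the sources used here. The deposited values are raw read counts, 1 table per library. Multiple alignments leave near-identical genes uncertain, and gene length was not corrected for. The labels name Trizol and the study's methods Ribospin for RNA isolation. The 6 libraries, 5124863 to 6213676 counts deep, were grouped by the film in their titles.

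Rows were filtered with filterByExpr, which left 7729, TMM-normalized and fitted together with edgeR 4.0.16 in R 4.3.3 (quasi-likelihood test, Benjamini-Hochberg adjustment, threshold 0.05). The common dispersion was 2.04, with 3 residual and 6.96 prior degrees of freedom. With 4 libraries against 2, an exact permutation test of 1 gene cannot go below p = 0.133. Standard errors were taken from the fold change and its F value. DESeq2 1.42.0, limma-voom (limma 3.58.1), other scalings and filters, a replicate block and leaving out each library were tried as alternatives.

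The members and all lists were chosen with earlier results of these data known. Of each further list, genes called by the test were named, plus at most 4 others, ranked by size of log2 fold change, that had a mean log2 CPM of 4 or more and whose Low and Medium libraries did not overlap High. Some genes that this rule names are not reported here. Genes most like a member were the 5 with the highest Pearson r on log2(CPM + 1) among rows with a mean log2 CPM of at least 5. Promoter sequences are from RefSeq (GRCr8).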

Additional observations from a re-analysis of the deposited data

How the results depend on the processing

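For Low and Medium against High, Low against High, Medium against High and Low against Medium, edgeR called 10, 4, 1 and 0 rows, DESeq2 called 375, 300, 307 and 116, and limma-voom called 23, 16, 14 and 0. Without the filter on low counts edgeR called 68, 34, 48 and 5, and with a mean of at least 10 counts it called 56, 30, 40 and 0. With library sizes alone the counts were 14, 0, 0 and 0, without ribosomal RNA rows 7, 2, 1 and 0, and with only the libraries of the 2 films compared 0 for Low against High and 0 for Medium against High. Leaving out 1 library at a time gave 34 to 242, 19 to 65, 11 to 275 and 0 to 194, a lone library being assumed to vary like the other films. The 242, 275 and 194 came without Medium replicate 2, and the 65 came without Low replicate 2. The cause was not tested.

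Members called were 0 in each comparison by edgeR. In Low and Medium against High there were 2 with DESeq2, namely Ier2 and Fosb, the latter in the fit only through High. There was 1 without the filter and 1 with a mean of at least 10 counts (Fosl1 both times, also 1 and 1 in Medium against High). Leaving out 1 library gave 0 to 2 members in the comparisons against High and 0 to 1 in Low against Medium. Without High replicate 2 there were 0. The replicate numbers are in the labels alone, which do not say whether they pair the libraries. Differences between replicates correlated at only 0.0066, 0.0034 and 0.0073 across genes between films. Libraries of 1 film were far apart (Pearson r from 0.607 to 0.638 on log2(CPM + 1)), so these low values cannot decide whether libraries were paired. A replicate block gave 57, 30, 39 and 0 rows, with 2 members (Fosl1 and Fos), 1, 1 and 0.

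Of the members' log2 fold changes under alternatives, 356 kept their sign and side of the threshold, 27 kept their sign and passed it, and 14 changed sign. Those that changed sign when a library was left out ranged as follows. Jund ran from -1.89 to 0.057 in Low and Medium against High, from -3.13 to 0.24 in Low against High (0.062 without High replicate 2) and from -1.11 to 0.052 in Medium against High. Myc ran from -3.44 (without Medium replicate 2) to 2.21 in Low and Medium against High (-0.38 without High replicate 2, and -0.33 with limma-voom), and from -9.13 to 0.36 in Medium against High. Jun ran from -0.043 to 0.51 in Medium against High. In Low against Medium, Fos ran from -10.20 to 8.68, Fosl1 from -0.75 to 4.14 (-0.10 without Medium replicate 1) and Ier2 from -0.40 to 0.12 (0.00079 without Low replicate 2).

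With library sizes alone the log2 ratio of the JUN family was 0.34 in place of -0.04, that of all 10 members was -0.56 in place of -0.94, and 3 rather than 5 members had all Low and Medium libraries under both High. The FOS family ratio kept its sign under each scaling and with each library left out, from -4.12 to -2.76. Values of 3 counts or fewer cannot be told from 0 at this depth.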
